A study of Mus musculus with 7 samples.

Results

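Pax5 encodes a paired-domain transcription factor of the B-cell lineage, and the elements described here are the stretches of open chromatin called as ATAC-seq peaks over the mouse Pax5 gene (ENSMUSG00000014030) and 50 kb on each side of it. The gene lies on the minus strand of chromosome 4, at chr4:44524757-44710487 in the GRCm38 (mm10) assembly, and a peak was a member if it overlapped the window chr4:44474757-44760487. Of 647973 peaks in 7 peak lists, 181 were members. Merged across libraries wherever at least 1 bp overlapped, they formed 42 of 145247 regions. Because a merged region can hold several summits, the summit of each peak was also widened by 150 bp on either side and merged, which gave 50 elements with 1 summit position each.

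ATAC-seq reads out accessible chromatin from the DNA fragments it releases. The 7 libraries came from sorted mouse B-cell progenitors, 1 library per group. WT pre-proB, WT proB and WT preB cells carried floxed Erg alleles (Ergfl/fl) and no Cre. Erg KO pre-proB cells had the genotype Rag1CreT/+;Ergdelta/delta, in which a Cre expressed from the common lymphoid progenitor stage removes the floxed part of Erg, an ETS-family transcription factor. Rescue pre-proB, proB and preB cells carried the same deletion and IgHVH10tar, a heavy-chain allele that is already rearranged, so every Rescue library differed from WT by both changes. In the 3 Rescue libraries the source name disagrees with the title: the library titled pre-proB has the source name proB, that titled proB has preB, and that titled preB has pre-proB. Titles were followed. Under the source names only the peak counts, the pairwise region counts and a few heights are also given, and all other results by stage follow the titles. Whether the floxed Erg exon was lost cannot be read from peak lists, and the ages of the animals and the number of animals behind each library are not given in the labels. With 1 library per group the spread between animals is unknown, no test was possible, and every interval below covers counting error alone.

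Pax5 commits progenitors to the B lineage by activating B-cell genes and silencing genes of other lineages. The gene is known to be transcribed from a distal and a proximal promoter, and an enhancer in intron 5 is known to be bound by PU.1, IRF4, IRF8 and NF-kB and to be active in progenitors before the promoter region opens under EBF1. The study asked how accessible the locus was in cells without Erg.

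In these libraries the locus held elements of 3 kinds. The proximal promoter, an element in intron 5 at 39.2 kb from the gene start and a few others had peaks in all 7 libraries. The distal promoter and an intron 1 element 1.22 kb downstream of the gene start were strong in the 4 proB and preB libraries, with a marginal distal promoter peak in WT pre-proB and none in Erg KO or Rescue pre-proB cells. The remaining kind, with its strongest peaks 35.3 kb, 80.3 kb and 85.6 kb into the gene, was tallest in the 3 pre-proB libraries.

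The reference sequence of the elements that carry these patterns is given on the Pax5 sense strand (minus strand of GRCm38), with matches to the searched letters in capitals. The patterns were EBF1 (CCCNNGGGA), ETS (CNGGAAGT), PU.1 (GAGGAAGT), ETS-IRF composite (GGAANTGAA), IRF (GAAANTGAA), RUNX (TGTGGTT), E-box (CAGCTG), FOXO (TGTTTAC), PAX5 (GCGTGAC), NF-kB (GGGNNTTCC) and CTCF (CAGNNGGCG), each on both strands. The ETS and PU.1 letters share GGAAGT but differ in their first base, so the same site cannot match both. The distal promoter is the RefSeq promoter window of Pax5 at chr4:44710645-44710944, 250 bases before and 50 after a start site that lies 207 bp upstream of the first GENCODE start:
distal promoter: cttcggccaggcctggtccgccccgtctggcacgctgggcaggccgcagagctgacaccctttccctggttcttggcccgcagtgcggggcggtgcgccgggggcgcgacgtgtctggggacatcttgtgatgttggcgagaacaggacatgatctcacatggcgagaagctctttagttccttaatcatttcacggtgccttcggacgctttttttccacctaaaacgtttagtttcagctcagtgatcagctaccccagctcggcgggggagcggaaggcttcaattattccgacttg
The next pair are 201-base windows around the summits of the intron 1 element (chr4:44709167-44709367, 1 E-box in capitals) and of the proximal promoter (chr4:44704475-44704675), shown because both rose between pre-proB and proB libraries:
intron 1 element: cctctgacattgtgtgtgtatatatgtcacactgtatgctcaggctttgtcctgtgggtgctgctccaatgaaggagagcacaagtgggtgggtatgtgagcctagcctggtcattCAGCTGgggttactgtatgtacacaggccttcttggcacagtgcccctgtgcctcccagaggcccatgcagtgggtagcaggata
proximal promoter: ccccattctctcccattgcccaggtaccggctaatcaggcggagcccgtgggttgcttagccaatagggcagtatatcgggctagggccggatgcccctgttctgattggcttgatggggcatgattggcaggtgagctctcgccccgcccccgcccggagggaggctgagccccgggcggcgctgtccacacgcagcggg
Intron 5 is represented by the element open at every stage (chr4:44671145-44671345, an E-box and an antisense ETS-IRF composite in capitals) and by the element 3911 bp upstream of it that was tall at the pre-proB stage (chr4:44675056-44675256):
intron 5 constant element: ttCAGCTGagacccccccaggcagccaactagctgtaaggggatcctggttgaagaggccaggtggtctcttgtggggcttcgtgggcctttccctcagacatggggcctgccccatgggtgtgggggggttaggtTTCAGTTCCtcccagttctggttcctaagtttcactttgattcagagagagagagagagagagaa
intron 5 pre-proB element: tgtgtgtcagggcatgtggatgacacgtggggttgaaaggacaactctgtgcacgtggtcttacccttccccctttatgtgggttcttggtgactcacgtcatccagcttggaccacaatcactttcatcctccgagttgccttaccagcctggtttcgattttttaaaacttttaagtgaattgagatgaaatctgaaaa
The intron 6 pair lie 5284 bp apart, at chr4:44624801-44625001 and chr4:44630085-44630285 (an E-box and an antisense RUNX match in capitals in the second), and had some of the tallest peaks inside the gene at the pre-proB stage:
intron 6 element at 85.6 kb: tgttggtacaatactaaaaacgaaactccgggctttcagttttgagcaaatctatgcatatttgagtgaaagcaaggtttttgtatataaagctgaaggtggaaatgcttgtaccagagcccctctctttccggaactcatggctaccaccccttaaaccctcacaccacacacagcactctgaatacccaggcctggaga
intron 6 element at 80.3 kb: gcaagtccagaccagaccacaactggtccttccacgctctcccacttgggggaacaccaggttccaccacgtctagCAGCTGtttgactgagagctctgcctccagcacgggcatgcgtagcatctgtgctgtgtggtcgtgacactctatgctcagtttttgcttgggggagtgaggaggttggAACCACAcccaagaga
The last is the upstream element 18.7 kb before the gene start (chr4:44729070-44729270, RUNX and E-box in capitals), which was tall in WT proB cells alone:
upstream element: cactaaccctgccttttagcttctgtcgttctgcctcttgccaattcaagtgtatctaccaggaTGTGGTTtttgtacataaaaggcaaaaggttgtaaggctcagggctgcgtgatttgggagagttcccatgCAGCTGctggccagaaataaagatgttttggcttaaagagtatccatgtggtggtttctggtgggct

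Heights are given as fold over background, the linear ratio deposited for each peak: the summit pileup plus 1 over the background pileup plus 1. The background pileup was a single value per library, between 3.49 and 4.60 fragments, and the lowest summit pileup called was 10 to 12 depending on the library, which bounds the signal that an uncalled region can hide. Lists held 76465 to 105649 peaks, with a median fold of 7.75 to 8.92. Promoter peaks of 8 B-lineage marker genes, the labelled cell type, numbered 7 in WT, 5 in Erg KO and 6 in Rescue cells at the pre-proB stage and 8 in each of the 4 later libraries. Over the 7 libraries, 61.4% to 65.5% of all 21911 coding genes had one. Among 4 markers each of T, NK, plasmacytoid dendritic, myeloid and erythroid cells, 1 to 3 of the T-cell, 2 or 3 of the NK, 4 of the dendritic, 2 or 3 of the myeloid and 3 of the erythroid genes had a promoter peak. The T, NK, dendritic and myeloid lists had higher summed folds in each pre-proB library than in any later one, the B-lineage list had lower ones, and the erythroid ranges overlapped. The summed fold of the 4 dendritic markers was 236.3 to 284.1 in the 3 pre-proB libraries and 97.3 to 140.7 in the 4 later ones, and that of the 8 B-lineage markers 123.1 to 134.7 and 362.2 to 451.9. The summed folds at the pre-proB stage and later were 31.4 to 47.7 and 8.55 to 26.0 for the T-cell list, 53.1 to 69.0 and 21.3 to 43.2 for the NK list, 34.4 to 42.2 and 16.98 to 31.2 for the myeloid list, and 63.2 to 76.0 and 64.1 to 81.5 for the erythroid list. Cd3e, Ncr1, Elane and Gata1 had no promoter peak in any library. The study defines its pre-proB, proB and preB cells as negative for NK1.1 and CD11c. Open promoters are not expression, and the part of other cells in each sort was not tested.

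The number of peaks in the window was lower in the 3 libraries titled pre-proB than in the other 4. There were 19 in WT, 17 in Erg KO and 18 in Rescue cells at the pre-proB stage, against 36 (WT) and 31 (Rescue) at the proB stage and 32 (WT) and 28 (Rescue) at the preB stage. By source name the Rescue counts are 28 at the pre-proB, 18 at the proB and 31 at the preB stage, so the order in Rescue rests on the titles. The 3 pre-proB lists are the longest of the 7, so the lower counts at Pax5 did not go with shorter lists. Within the gene body alone the counts were 15, 14 and 15 in the 3 pre-proB libraries and 28, 23, 22 and 20 in the others, so most members lay inside the gene at every stage. By place, the 42 regions comprised 10 in intron 6, 9 in intron 5, 8 upstream of the gene, 4 in intron 1, 4 in intron 8, 3 in intron 7, 2 in exon 10, 1 in intron 4 and 1 downstream. The 8 upstream regions all had peaks in each proB and preB library, whereas at the pre-proB stage 4 did in WT and 3 in either Erg-deleted library.

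**Figure D1:**
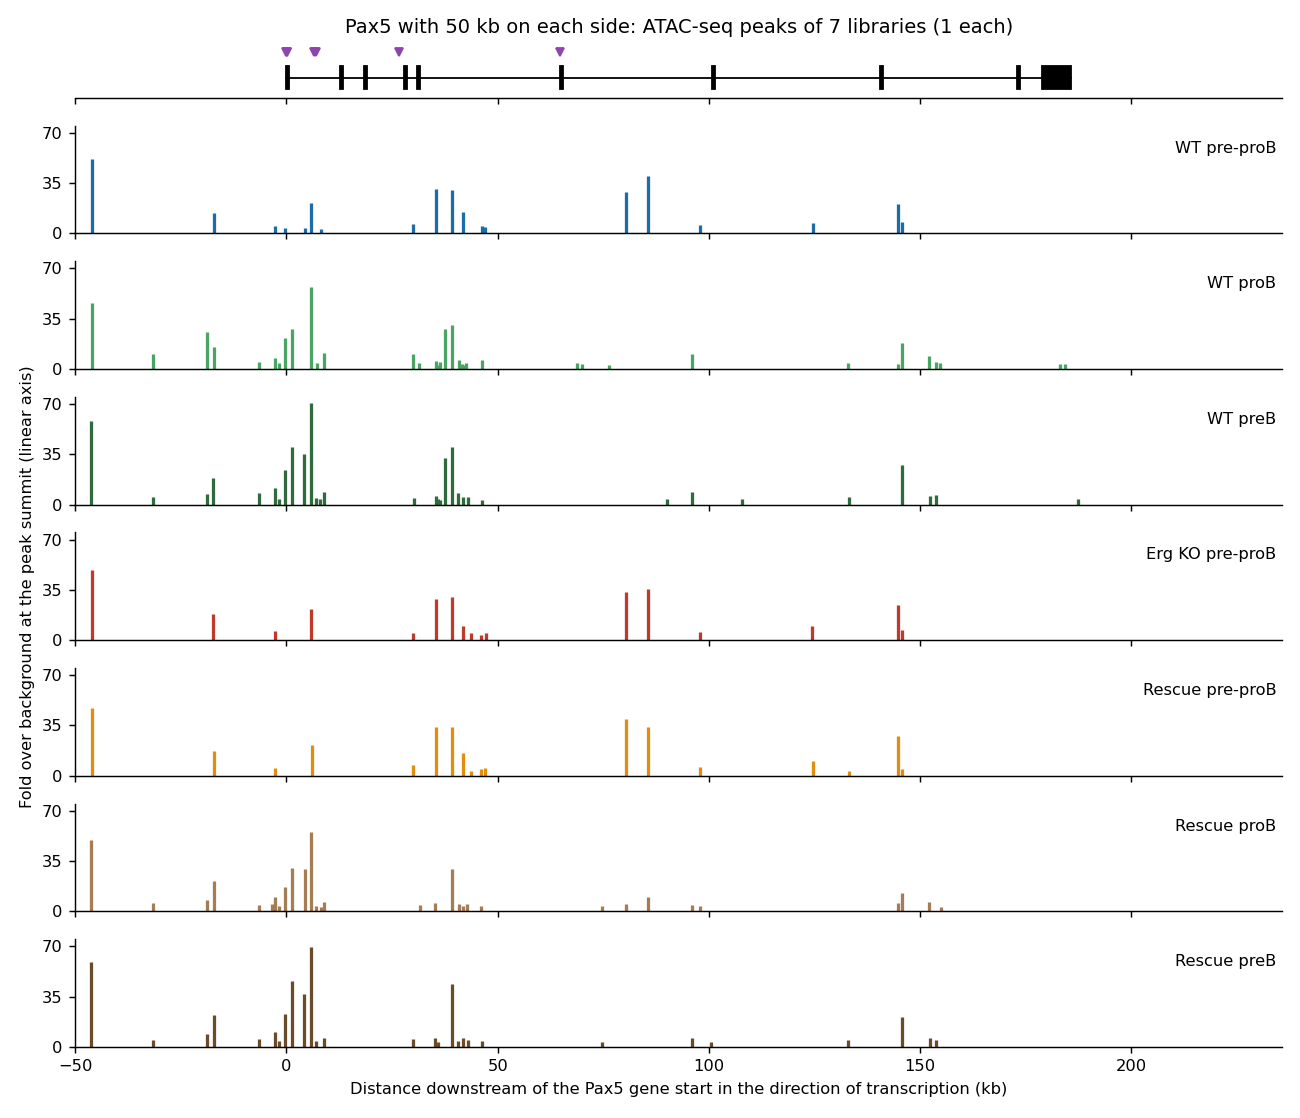
Each vertical line is a peak summit, placed by its distance downstream of the gene start in kb, with the fold over background as its height on a linear axis, for 1 library per row; black boxes are exons and purple triangles annotated start sites. The lines between 80 and 86 kb are tall in the 3 pre-proB rows, and those around 0 to 6 kb are tall in the proB and preB rows.

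Regions with a peak in every library numbered 9 (21.4%), against 32% of all regions. Regions in the 4 proB and preB libraries and in no other numbered 10 (23.8%), against 5.19% of all regions. A single region (2.38%) had peaks in the 3 pre-proB libraries and in no other, against 11.5%. Regions called in 1 library alone numbered 9 (21.4%), against 17.8%. By title, the Pax5 window thus held a larger share of late-stage regions than the genome, and a smaller share of regions restricted to the pre-proB stage. These shares were not recomputed under the source names.

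The distal promoter, at the start of the gene, was the promoter that differed most between stages. Its summit lay 368 bp upstream of the first GENCODE start and 161 bp upstream of the RefSeq start. At the pre-proB stage the fold was 3.68 in WT and no peak was called in Erg KO or Rescue cells. The proB folds were 21.6 (WT) and 16.9 (Rescue), and the preB folds 24.1 (WT) and 22.9 (Rescue). All 4 proB and preB values were above the WT pre-proB value. The WT pre-proB peak was 261 bp wide, with a summit pileup of 18 fragments (exact Poisson interval 10.7 to 28.4), and 93.8% of the peaks in that list ranked as high or higher. Its interval reaches below 12, the lowest pileup called in Erg KO and Rescue pre-proB cells, so the presence in WT and absence in the other pair were not distinguishable at this depth. Its call in WT pre-proB also fell away when lists were cut to equal length or to a −log10 q of at least 10, since its −log10 q was 5.26. Among shared elements, WT proB exceeded WT pre-proB here by 2.62 on the centred log2 scale (interval 1.91 to 3.34), the log2 ratio of folds less its median over all regions shared by the pair.

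The intron 1 element 1.22 kb downstream of the gene start followed the distal promoter. No pre-proB library had a peak there. The proB folds were 28.1 (WT) and 29.8 (Rescue), and the preB folds 40.3 (WT) and 45.8 (Rescue). In both genotypes the preB value was above the proB value, by 0.47 (interval 0.16 to 0.78) in WT and 0.48 (interval 0.17 to 0.79) in Rescue on the centred log2 scale. The Rescue difference less the WT difference was 0.01 (interval −0.43 to 0.45). This and every other height difference between Rescue stages follows the titles. By source name the Rescue proB library is the one titled pre-proB, which had no peak here.

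The proximal promoter, named for a pair of alternative starts, was accessible in all 7 libraries at its main summit. This summit lay 569 bp upstream of the nearer of the pair, which are annotated within intron 1 of the transcript from the distal promoter. It lay 1162 bp upstream of the farther start, at which 4 transcripts begin. At the pre-proB stage the fold was 20.9 in WT, 22.0 in Erg KO and 21.6 in Rescue cells. The proB folds were 57.2 (WT) and 55.5 (Rescue), and the preB folds 70.6 (WT) and 69.3 (Rescue). The 4 later values were all above the 3 pre-proB values. This was the tallest element of the window in each of the 4 later libraries. WT proB exceeded WT pre-proB by 1.52 on the centred log2 scale (interval 1.20 to 1.84), and Rescue proB exceeded Rescue pre-proB by 1.66 (interval 1.35 to 1.98). Against WT pre-proB, the Erg KO value differed by 0.01 (interval −0.36 to 0.39) and the Rescue pre-proB value by −0.11 (interval −0.49 to 0.27). The transcript 5730488B01Rik, annotated on the opposite strand, overlaps this element, and accessibility cannot be assigned to 1 of the pair.

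Intron 1 held a further element 4.29 kb from the gene start, 1625 bp upstream of the proximal promoter summit. It was called as a separate peak with preB folds of 35.5 (WT) and 36.9 (Rescue), a Rescue proB fold of 29.4 and a WT pre-proB fold of 3.88. In WT proB a single peak 2477 bp wide ran over it and the proximal promoter, with its summit at the latter, so no separate height exists there. Erg KO and Rescue pre-proB cells had no peak over it. As at the distal promoter, the WT pre-proB peak was small, with 19 fragments at the summit (interval 11.4 to 29.7).

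**Figure D2:**
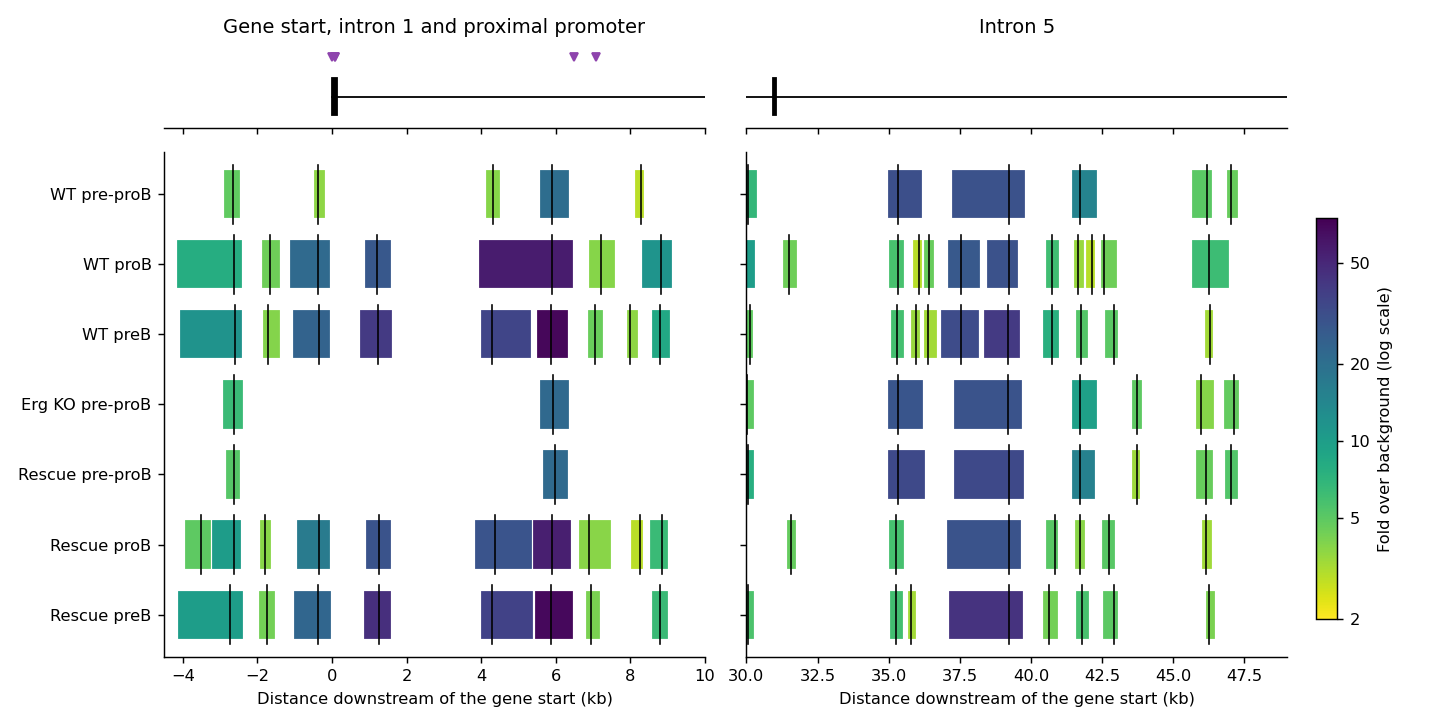
Boxes are called peaks by library, placed by distance from the gene start in kb and coloured by fold over background on a log scale, with black ticks at the summits; the left panel covers the gene start and intron 1 and the right panel the end of intron 5 nearest the gene start. The left panel shows the wide WT proB peak and the absence of Erg KO and Rescue pre-proB peaks between −2 and 5 kb, and the right panel shows the 2 peaks of WT proB and of WT preB that the other 5 libraries have as 1.

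Intron 5 is 33716 bp long, and all its peaks lay toward exon 5. At the pre-proB stage it held 5 peaks in WT, 6 in Erg KO and 6 in Rescue cells, then 11 (WT) and 7 (Rescue) at the proB stage and 9 (WT) and 7 (Rescue) at the preB stage. Its constant element, 39.2 kb from the gene start, had pre-proB folds of 30.2 in WT, 29.9 in Erg KO and 33.6 in Rescue cells. The proB folds were 30.3 (WT) and 29.6 (Rescue), and the preB folds 40.3 (WT) and 43.9 (Rescue). The 5 pre-proB and proB values lay between 29.6 and 33.6, and the 2 preB values were the highest. WT preB exceeded WT proB by 0.36 on the centred log2 scale (interval 0.05 to 0.66), and Rescue preB exceeded Rescue proB by 0.43 (interval 0.12 to 0.75). By source name the Rescue proB fold would be 33.6 and the Rescue preB fold 29.6, which turns the Rescue direction. Erg KO pre-proB differed from WT pre-proB by −0.07 (interval −0.39 to 0.24), and WT proB from WT pre-proB by 0.07 (interval −0.25 to 0.39). Whether this element is the enhancer known in intron 5 was not tested, since the files hold no published coordinates of it.

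A second summit 1714 bp nearer the gene start belonged to the same stretch. WT proB and WT preB had separate peaks there, with folds of 27.5 and 32.7. In the other 5 libraries a peak of 2334 to 2553 bp with its summit at the constant element ran over it, so all 7 libraries had a peak at both positions. The antisense gene Gm12462 runs over this part of intron 5, and 4930517J16Rik lies just beside the constant element.

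The pre-proB element of intron 5, 35.3 kb from the gene start, went the other way. At the pre-proB stage the fold was 31.2 in WT, 28.8 in Erg KO and 33.6 in Rescue cells. The proB folds were 5.72 (WT) and 5.79 (Rescue), and the preB folds 5.92 (WT) and 5.98 (Rescue). The stages did not overlap, and its peaks narrowed from between 1142 and 1234 bp at the pre-proB stage to between 386 and 479 bp later. On the centred log2 scale WT proB differed from WT pre-proB by −2.38 (interval −2.94 to −1.81), and Rescue proB from Rescue pre-proB by −2.23 (interval −2.83 to −1.63). A smaller element at 41.7 kb had the same order, with pre-proB folds of 14.9 (WT), 9.71 (Erg KO) and 15.5 (Rescue), proB folds of 3.51 (WT) and 3.79 (Rescue) and preB folds of 5.26 (WT) and 5.78 (Rescue). Of the 9 regions in all 7 libraries, 2 had every pre-proB fold above every later fold and 2 had every later fold above every pre-proB fold, against 29.4% and 23.5% of all such regions.

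The summed T, NK, dendritic and myeloid marker folds were likewise higher in the 3 pre-proB libraries, where these intron 5 elements and those of introns 6 and 8 described next were tall. The promoter of Siglech, a plasmacytoid dendritic marker, had pre-proB folds of 101.4 (WT), 103.0 (Erg KO) and 113.3 (Rescue) and later folds of 18.6 to 54.5. Klrb1c, an NK marker, had pre-proB folds of 39.5 (WT), 35.2 (Erg KO) and 49.7 (Rescue), 5.54 in WT proB, 3.12 in Rescue proB and no peak at the preB stage. These 2 genes and Cd8a and Itgam were picked after their values were seen. The sort definitions exclude cells with NK1.1 or CD11c at every stage, and the part of other cells in the height of the Pax5 elements was not tested. Cd8a, a T-cell and dendritic-cell marker, had pre-proB folds of 19.2 to 30.2 and 1 later peak (6.90 in Rescue proB), and Itgam, a myeloid marker, 25.7 to 29.8 and 4.06 to 8.69. Other members of the T, NK and myeloid lists rose from WT pre-proB to WT proB. Lck (T cell) went from 12.2 to 22.9 and Csf1r (myeloid) from 7.37 to 12.9. The NK markers Eomes and Prf1 went from 4.07 to 8.12 and from 14.9 to 29.5.

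The 2 elements of intron 6 had the tallest peaks inside the gene body in Erg KO and Rescue pre-proB cells, and the one at 85.6 kb was the tallest there in WT pre-proB cells. At 85.6 kb the pre-proB folds were 40.1 (WT), 35.5 (Erg KO) and 33.8 (Rescue), the Rescue proB fold was 10.02, and the other 3 libraries had no peak. At 80.3 kb the pre-proB folds were 28.9 (WT), 33.2 (Erg KO) and 39.5 (Rescue) and the Rescue proB fold was 5.12, again with no peak in the other 3. Thus the Rescue proB library had a low peak at both where WT proB had none. Another intron 6 element, at 97.9 kb, had the same pattern with pre-proB folds of 5.82 (WT), 5.86 (Erg KO) and 5.90 (Rescue) and a Rescue proB fold of 3.56. Regions with peaks in the 3 pre-proB libraries and Rescue proB and in no other made up 3 of 42 (7.14%) in the window and 4.43% of all regions.

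Intron 8 held a pair of summits 929 bp apart whose heights moved in opposite directions, and which lie in 1 merged region. The one at 145.7 kb had pre-proB folds of 7.75 (WT), 7.33 (Erg KO) and 4.83 (Rescue), proB folds of 18.3 (WT) and 12.9 (Rescue) and preB folds of 27.4 (WT) and 21.04 (Rescue). The one at 144.8 kb had pre-proB folds of 20.2 (WT), 24.6 (Erg KO) and 27.3 (Rescue), proB folds of 3.69 (WT) and 5.79 (Rescue), and no peak at the preB stage. Between WT pre-proB and WT proB the first differed by 1.31 (interval 0.77 to 1.84) and the second by −2.38 (interval −3.08 to −1.67) on the centred log2 scale. Counts over merged regions miss this switch. Intron 7 had a single element of the pre-proB kind, at 124.5 kb, with folds of 6.98 (WT), 10.1 (Erg KO) and 10.01 (Rescue) and no later peak.

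Upstream of the gene, the element at 18.7 kb was tall in WT proB cells alone. The proB folds were 25.8 (WT) and 7.57 (Rescue) and the preB folds 7.45 (WT) and 8.67 (Rescue), with no peak in the pre-proB libraries. WT proB was thus more than 2 times each of the other values. On the centred log2 scale preB differed from proB by −1.85 in WT (interval −2.40 to −1.30) and by 0.06 in Rescue (interval −0.60 to 0.72). The Rescue difference less the WT difference was 1.91 (interval 1.05 to 2.77). It was the largest such difference among the elements with a summit in all 4 proB and preB libraries, and the interval takes no account of that choice. No other element among them had an interval of this difference that left out 0. Of 10 window regions in the 4 proB and preB libraries and in no other, 1 had a WT proB fold at least 2 times each of the others, and 4.73% of such regions in the genome did. By source name the Rescue proB library had no peak here. A second upstream element, 31.7 kb before the gene start, was likewise highest in WT proB, with proB folds of 10.5 (WT) and 5.57 (Rescue) and preB folds of 5.26 (WT) and 4.95 (Rescue). By contrast the element at 17.2 kb, 1445 bp from the first, was open throughout, with folds from 14.5 in WT pre-proB to 21.9 in Rescue preB. The promoter of Zcchc7, the neighbouring gene on the opposite strand, lay at the edge of the window and had folds from 46.0 in WT proB to 59.0 in Rescue preB. The pre-proB libraries fell inside that range.

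**Figure D3:**
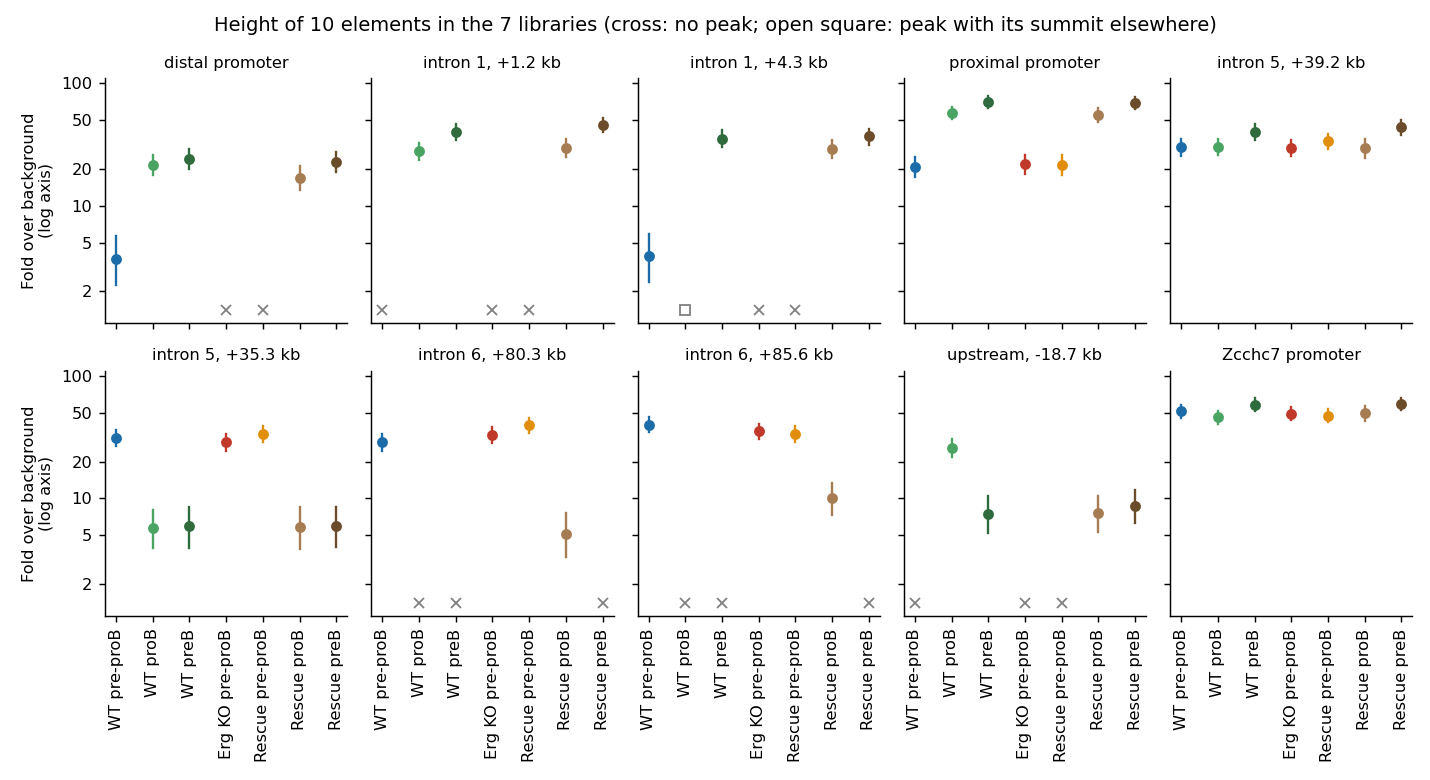
Fold over background on a log axis at 10 elements, with 1 point per library and lines for the 95% counting interval of the summit pileup; a cross marks a library with no peak and an open square one whose peak has its summit elsewhere. The proximal promoter rises from about 21 to above 55 between stages, the intron 5 element at 39.2 kb stays between 29.6 and 43.9, and the Zcchc7 promoter between 46.0 and 59.0.

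The comparison of WT pre-proB with WT proB sets single libraries of these stages side by side, and the part of other cells in each was not tested. Of 36 regions with a peak in either library, 12 were shared, 4 (11.1%) were in WT pre-proB only and 20 (55.6%) in WT proB only. Over all regions with a peak in either, 26.3% were in WT pre-proB only and 23.5% in WT proB only. The tallest of the 4 were the intron 6 elements at 85.6 and 80.3 kb and the intron 7 element, and the tallest of the 20 were the intron 1 element at 1.22 kb and the upstream elements at 18.7 and 31.7 kb. Of the 12 shared regions 5 passed a ratio of 2 either way after centring, 3 of them upward, against 29.8% of all shared regions. With peaks limited to a −log10 q of at least 10, the 20 became 11, so many of the gained regions had small peaks.

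The same step in the Rescue libraries, which lack Erg, was read by title. Of 31 regions, 12 were shared, 4 (12.9%) were in Rescue pre-proB only and 15 (48.4%) in Rescue proB only, against 28.3% and 15.3% of all regions. Of the 12 shared, 6 passed a ratio of 2, of which 2 went upward and 4 downward, against 29.6% of all shared regions. The median centred log2 difference of the shared window regions was −0.40 here and 0.26 in WT. Read by source name, where the library titled Rescue preB is the pre-proB one and that titled Rescue pre-proB is the proB one, 15 were in the earlier library only and 5 in the later, so the direction rests on the titles.

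From WT proB to WT preB fewer regions changed. Of 35 regions 25 were shared, 7 (20%) were in WT proB only and 3 (8.57%) in WT preB only, against 24.4% and 8.01% of all regions. With lists cut to equal length the split turned to 1 in WT proB only and 6 in WT preB only. None of the 10 exceeded a fold of 4.43, so each was a small peak. Of the 25 shared regions 3 passed a ratio of 2, all downward, against 13.8% of all shared regions: these were the intron 4 element and the upstream elements at 18.7 and 31.7 kb. In contrast, the proximal promoter, the intron 1 element at 1.22 kb, the intron 5 constant element and the intron 8 summit at 145.7 kb each had an interval above 0 in the upward direction, as did the Zcchc7 promoter (0.29, interval 0.04 to 0.54).

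Erg KO was compared with WT at the pre-proB stage, with 1 library of each. The libraries differ in Cre as well as in Erg, and whether the locus needs Erg to be accessible was not tested. Of 17 regions 14 were shared, 2 (11.8%) were in WT only and 1 (5.88%) in Erg KO only, against 5.58% and 12.5% of all regions. The 2 in WT only were the marginal distal promoter peak and an intron 1 peak at 8.27 kb with a fold of 2.91, and the 1 in Erg KO only was an intron 5 peak at 43.7 kb with a fold of 4.95. None of the 14 shared regions passed a ratio of 2, against 0.517% of all shared regions. Over 16 elements with a summit in both, the centred log2 difference of Erg KO from WT ran from −0.68 to 0.47, and 1 interval left out 0, that of the intron 5 element at 41.7 kb (−0.68, interval −1.19 to −0.17). In Rescue pre-proB cells, which carry the same Erg deletion, that element differed from WT by −0.10 (interval −0.54 to 0.35). At this depth no element present in WT pre-proB cells with a fold above 3.88 was without a peak in Erg KO cells.

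Rescue pre-proB was likewise close to WT pre-proB. Of 18 regions 14 were shared, 2 (11.1%) were in WT only and 2 (11.1%) in Rescue only, against 4.6% and 14.7% of all regions. The 2 in WT only were the same marginal distal promoter and intron 1 peaks that Erg KO cells lacked, and both comparisons use the 1 WT pre-proB library. None of the 14 shared passed a ratio of 2, against 0.667% of all shared regions. Over 16 shared elements, 3 intervals lay below 0, those of the intron 8 summit at 145.7 kb (−0.84, interval −1.56 to −0.12), the intron 6 element at 85.6 kb (−0.40, interval −0.69 to −0.12) and the Zcchc7 promoter (−0.28, interval −0.53 to −0.04). Under the source names the counts became 4 in WT only and 14 in Rescue only.

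**Figure D4:**
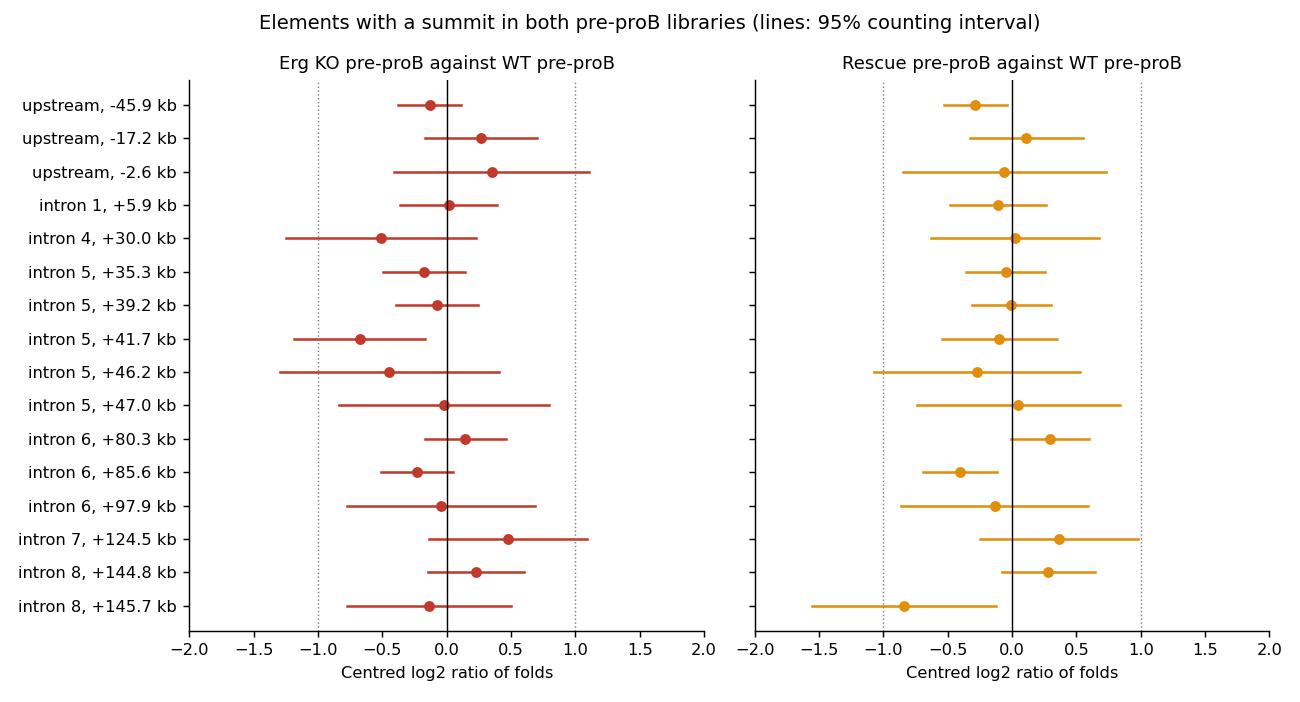
Centred log2 ratio of folds of Erg KO (left) and Rescue (right) pre-proB against WT pre-proB for the 16 elements with a summit in both libraries, listed by distance from the gene start; lines are 95% counting intervals and dotted lines mark a ratio of 2. All points lie between −0.84 and 0.47.

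Rescue proB and WT proB shared a smaller part of their regions than the other genotype pairs, in the window as in the genome. Of 36 regions 23 were shared, 9 (25%) were in WT only and 4 (11.1%) in Rescue only, against 17.5% and 16% of all regions. The tallest in WT only was the intron 4 element, with a fold of 10.2 in WT proB, and the tallest in Rescue only were the intron 6 elements at 85.6, 80.3 and 97.9 kb. Of the 23 shared 2 passed a ratio of 2, both lower in Rescue, against 11.9% of all shared regions. They were the upstream element at 18.7 kb (−1.78, interval −2.33 to −1.23) and an intron 6 element at 96.0 kb (−1.23, interval −1.98 to −0.47). The promoters did not follow: the distal promoter differed by −0.36 (interval −0.78 to 0.06), the proximal by −0.06 (interval −0.30 to 0.18) and the intron 1 element at 1.22 kb by 0.08 (interval −0.26 to 0.41). Under the source names 21 regions were in WT only.

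Rescue preB was close to WT preB. Of 30 regions 24 were shared, 4 (13.3%) were in WT only and 2 (6.67%) in Rescue only, against 6.6% and 16.2% of all regions, and no unshared peak exceeded a fold of 3.95. None of the 24 shared passed a ratio of 2, against 3.46% of all shared regions. The proximal promoter differed by −0.13 (interval −0.35 to 0.09), the distal promoter by −0.18 (interval −0.56 to 0.21) and the intron 5 constant element by 0.02 (interval −0.26 to 0.31). Of 26 elements, 2 had intervals below 0, the intron 8 summit at 145.7 kb (−0.48, interval −0.86 to −0.10) and an intron 5 element at 40.7 kb (−0.93, interval −1.72 to −0.13). Under the source names the counts became 7 in WT only and 6 in Rescue only.

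**Figure D5:**
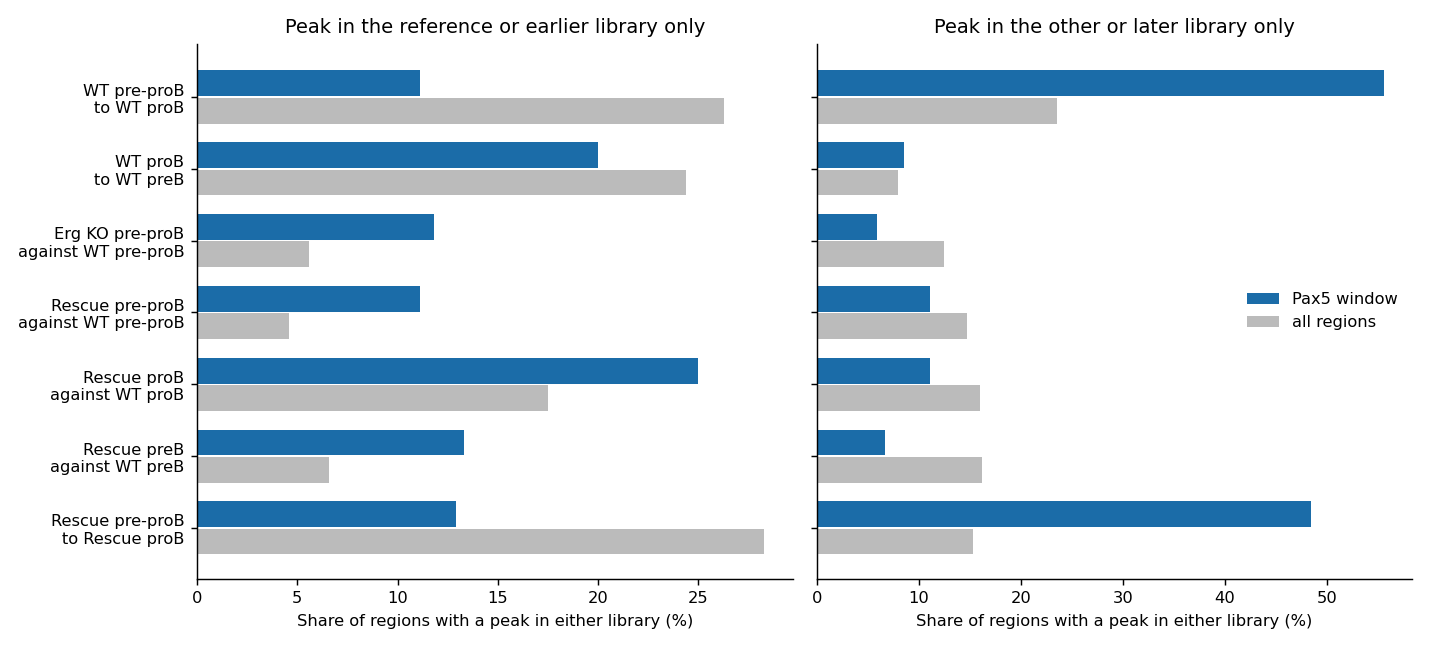
For each comparison, the share (%) of regions with a peak in either library that were called in the reference or earlier library only (left) or the other or later library only (right), in the Pax5 window (blue) and over all regions (grey). The 55.6% and 48.4% of regions gained from pre-proB to proB stand above 23.5% and 15.3% of all regions.

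Letters of known B-cell factors were searched under the summits. Over 301-base windows, the E-box was found in 15 of 50 Pax5 elements (25.5% of all regions held it), RUNX in 7 (13.6% of all regions), EBF1 in 5 (7.60%), the ETS-IRF composite in 5 (6.23%), NF-kB in 3 (4.93%), and ETS, PU.1 and IRF in 1 each (9.83%, 8.52% and 4.57%). FOXO, PAX5 and CTCF letters were in none of the 50, and in 3.96%, 1.25% and 4.98% of all regions. The composite letters, to which PU.1 and IRF factors can bind together, were in the intron 5 constant element, starting at position 137 of its 201-base window, and in 4 others. The 7 elements with RUNX letters were both tall intron 6 elements, the pre-proB element of intron 5, the intron 8 summit at 145.7 kb, the upstream element at 18.7 kb and intron 6 elements at 96.0 and 90.01 kb, so they included pre-proB and late-stage elements. The single ETS match was in the second summit of the constant intron 5 stretch. The distal promoter sequence held none of the 11 patterns. These are matches of letters only, and other forms of each site were not searched.

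For each of the 21911 coding genes the tallest promoter peak of a library was taken. For Pax5, as annotated in the basic set used for this, the starts were the distal ones alone: the value was that of the distal promoter in WT pre-proB and of the intron 1 element at 1.22 kb in the 4 later libraries, and the proximal promoter was not part of it. The promoter peaks most like those of Pax5 across the 7 libraries, by Euclidean distance on the log2 fold scale with genes without a peak set to 0, were those of Gpr12 (distance 0.385), Rsph14 (0.489), 1500009C09Rik (1.03), AC134908.4 (1.03) and Gm19402 (1.12). These 5 genes were picked on the same values, so their WT pre-proB folds of 3.30 to 5.23 are not a separate result. The lack of a peak in Erg KO and Rescue pre-proB cells likewise came with the choice. Promoter peaks in the same 5 libraries and in no other were found at 34 genes (0.155%).

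Genes known to act at Pax5 or in early B cells were open at their promoters throughout, with all 10 listed regulators peaked in all 7 libraries. In any single library 61.4% to 65.5% of coding genes had a promoter peak. The share with a peak in all 7, which cannot exceed the lowest of these, was not computed. Ebf1, which encodes the factor that activates Pax5, had pre-proB folds of 21.5 (WT), 24.4 (Erg KO) and 23.6 (Rescue), proB folds of 58.9 (WT) and 48.1 (Rescue) and preB folds of 51.1 (WT) and 43.5 (Rescue). As at the proximal Pax5 promoter, all later values were above all pre-proB values. Of the other listed regulators, Erg, Spi1 and Runx1 had the same order, and Irf8, Ikzf1 and Foxo1 had the reverse. The rising order was also that of 23.5% of all regions with peaks in all 7 libraries. Of 10 genes known to be activated by Pax5, 8 had promoter peaks in all 7 libraries, to be read beside the same shares and with the same limit. Cd79a, which encodes a chain of the B-cell receptor, was not among these 8. At the pre-proB stage Cd79a had a fold of 11.4 in WT and 3.57 in Rescue cells and no peak in Erg KO cells. Later its folds were 80.1 (WT proB), 59.0 (Rescue proB), 81.3 (WT preB) and 75.5 (Rescue preB). Of 8 genes known to be repressed by Pax5, 7 had promoter peaks in all 7 libraries, and Ccl3 lacked one in WT preB alone. Beside this stand again the 61.4% to 65.5% of coding genes with a peak in any single library.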

How the data were processed

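Peak lists of 7 ATAC-seq libraries were analysed. Per the study's methods, Bowtie2 aligned the paired-end reads to mm10 and MACS2 called peaks, 1 list per library. CASAVA 1.8.2 and Picard are also named in the submitters' processing notes. The sources used here give neither options nor duplicate handling. For fragmentation the methods name sonication and the labels Tn5. These choices set the number and width of peaks. Of the 10 columns, the score deposited was 10 times the −log10 q, the fold deposited by the authors was the ratio of summit pileup to background pileup, each plus a pseudocount of 1, and the deposited −log10 values of p and q refer to the summit. The summit offset gave its position. Read totals were not used, and the lists hold none.

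Here folds were turned back to pileups (100% whole within 0.02 of a step). Peaks were merged with an overlap of 1 bp, and elements were summits with 150 bp on either side, merged. Genes came from GENCODE M21 on GRCm38, the build of the files. Exact Poisson intervals (95%) of summit pileups cover counting error only, and log2 ratios were centred on the median of all shared regions. Named were regions within 1000 bp of a start, in intron 5, in all 7 libraries or tallest among unshared ones. Alternatives were shorter lists, stricter q, other windows, centring and stage by source name. The members and gene lists were chosen with earlier results of these data known. Scripts used Python 3.11.15 and numpy 2.4.6 and were tested on simulated lists.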

Additional observations from a re-analysis of the deposited data

How the results depend on the processing

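Of 114 values recomputed, 82 stayed within 1.5 times of the value reported, or, for intron 5, within its counting interval. With peaks limited to a −log10 q of at least 10, window peaks numbered 20 in WT proB, 21 in WT preB, 16 in Rescue proB and 17 in Rescue preB. Regions gained from pre-proB to proB then numbered 11 in WT and 6 in Rescue, those in WT proB and not WT preB 2, and those in Rescue proB and not WT proB 1. The WT-only and Erg KO-only counts became 1 and 2, the WT-only and Rescue-only counts at the pre-proB stage 0 and 1, and the Rescue preB-only count 1. With lists cut to equal length, 1 region was in WT proB only and 6 in WT preB only, 1 in WT and not Erg KO, 0 in either of WT and Rescue pre-proB alone, 2 in Rescue proB and not WT proB, and 0 in Rescue preB and not WT preB. Here the split from proB to preB turned from 7 against 3 to 1 against 6. With summit windows, 7 regions were in WT pre-proB and not WT proB, 5 in WT preB and not WT proB, and 7 in Rescue proB and not WT proB. With the stage taken from the source name, the counts for WT only and Rescue only were 4 and 14 at pre-proB and 7 and 6 at preB, 21 were in WT proB only, and from Rescue pre-proB to proB 15 were lost and 5 gained. With summed peak width in place of the highest fold, the intron 5 ratio of WT preB to WT proB turned from 1.33 to 0.802, and that of Rescue proB to WT proB moved from 0.978 to 0.741, and WT proB peaks cover the most bp there (6128). The proximal promoter had a peak in 7 libraries under every setting, and the distal in 5, or 4 at the stricter q or equal length and 6 within 2500 bp, which takes in a neighbouring element. The causes of the other moves were not tested.

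Each group had 1 library, so nothing here measures spread between animals, and no replicate could be left out. No paired analysis was possible because the labels give no replicate numbers. The lowest pileup called, 10 to 12 fragments, sets what a missing peak can mean, and small peaks appear and vanish with the threshold.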
